A study of Mus musculus with 12 samples.

Results

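The expression of 9 inhibitory and paired receptors of myeloid cells was described in cultured mouse microglia, the resident macrophages of the brain. The 9 genes were taken by symbol from a table of 14541 genes: Lilrb4a, Pirb, Cd300a, Cd300ld, Cd300lf, Sirpa, Cd200r1, Cd33 and Siglece. They were chosen with earlier results of these data known, so their counts beside all genes are description only. All 9 were listed and all passed the filter on low values. Cd300lf reached 1 FPKM in 7 of 12 libraries, 4 of them in Hevin, and the other 8 genes did so in all 12.

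All 12 libraries came from wild-type mouse pups of postnatal days 7 to 9. Microglia were sorted from the forebrain on magnetic CD11b beads, and CD11b is also carried by other myeloid cells. They were plated at 40000 to 80000 cells per well and kept for 6 h after treatment. In the Hevin group 4 libraries came from cells given 500 nM recombinant Hevin, an astrocyte-secreted protein. In the LPS group 4 libraries came from cells given 50 ng/mL lipopolysaccharide, a bacterial ligand of Toll-like receptor 4. In the Media group 4 libraries came from cells given the same volume of medium. Each group carried the replicate numbers 1 to 4. Levels are FPKM, which relates reads to library size and to the length of the gene model used in counting. By reads recovered from the values, this library size was the read total times a factor that differed by group. The relative factor was 0.804 to 0.897 in LPS, 1.02 to 1.11 in Media and 1.02 to 1.16 in Hevin. A lower factor gives higher FPKM, which summed to 414956 to 430248 per library in LPS, 319069 to 330239 in Media and 298271 to 327160 in Hevin. No label ties the libraries of a group to different mice or wells, and p-values therefore cover the spread between libraries and nothing wider.

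Inhibitory receptors of myeloid cells carry short tyrosine motifs in their cytoplasmic tails. When such a receptor binds its ligand, Src family kinases phosphorylate these motifs, and phosphatases encoded by Ptpn6, Ptpn11 and Inpp5d are recruited and dampen signals from activating receptors nearby. Many have an activating relative with a similar outer part that signals through the adaptor DAP12 (Tyrobp) or the Fc receptor gamma chain (Fcer1g). In the brain such receptors read CD47 and CD200 on neurons, sialic acid on cell surfaces, lipids of dying cells and class I MHC, and they are known as brakes on microglial phagocytosis and cytokine release.

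The genes lie in 6 places of the mouse genome (GRCm38/mm10, GENCODE M21), all as protein-coding genes. Cd300a, Cd300ld and Cd300lf share a cluster on chromosome 11. Cd300a is at chr11:114890041-114904654 on the plus strand, Cd300ld at chr11:114982274-114989922 and Cd300lf at chr11:115116214-115133992, both on the minus strand. Cd33 at chr7:43524216-43544428 and Siglece at chr7:43651070-43660161 lie near each other in the Siglec cluster, both on the minus strand. Pirb is at chr7:3711409-3720391 on the minus strand. Lilrb4a is at chr10:51490956-51496611, Sirpa at chr2:129592835-129632228 and Cd200r1 at chr16:44765736-44794978, all on the plus strand.

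Of the 9 genes, 6 were matched by symbol in RefSeq's promoter table (GRCm38.p6). The others were Lilrb4a, Sirpa and Cd200r1. The 250 bases before the RefSeq start are printed 5′ to 3′ for 3 genes, because Pirb and Cd300ld fell in Hevin while Cd33 had the highest ratio of Hevin to Media. Pirb is at chr7:3720383-3720632, Cd300ld at chr11:114989887-114990136 and Cd33 at chr7:43533172-43533421, all read from the minus strand. The Cd33 window lies inside the GENCODE gene, whose outermost start is further upstream. Capitals mark matches on either strand to GAGGAA, the core bound by PU.1 and other ETS factors, or to the NF-kB motif.
Pirb: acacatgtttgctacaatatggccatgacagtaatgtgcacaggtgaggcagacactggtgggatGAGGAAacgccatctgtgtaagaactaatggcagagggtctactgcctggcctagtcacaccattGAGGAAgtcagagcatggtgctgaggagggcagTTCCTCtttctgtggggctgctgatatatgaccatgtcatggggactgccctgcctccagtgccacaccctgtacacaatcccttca
Cd300ld: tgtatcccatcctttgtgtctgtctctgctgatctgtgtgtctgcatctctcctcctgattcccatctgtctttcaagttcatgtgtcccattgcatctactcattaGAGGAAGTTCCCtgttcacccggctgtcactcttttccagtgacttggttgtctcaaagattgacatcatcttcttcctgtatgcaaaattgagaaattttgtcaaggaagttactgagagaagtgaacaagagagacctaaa
Cd33: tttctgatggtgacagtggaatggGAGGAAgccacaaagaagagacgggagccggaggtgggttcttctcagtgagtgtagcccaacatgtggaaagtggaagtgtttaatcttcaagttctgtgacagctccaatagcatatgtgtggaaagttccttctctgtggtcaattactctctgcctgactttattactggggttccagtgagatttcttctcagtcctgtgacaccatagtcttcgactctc
GAGGAA, searched on both strands, was found at least once in all 6 promoters, with 3 matches in Pirb and 1 each in Cd300ld and Cd33. The same letters were in 23.3% of 32851 RefSeq promoters of this length. The NF-kB motif was found once in Cd300a and once in Cd300ld, where it overlaps the GAGGAA match, and it was in 7.25% of all promoters. Neither the AP-1 motif TGANTCA, in 6.75% of all promoters, nor, outside Cd300lf with 1 match, the interferon element core GAAANNGAA, in 7.13%, was in the 6 windows. A match describes the letters only.

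Microglia markers were present in every library: all 10 were listed, with a summed level of 584 to 831 FPKM in the Media libraries, 1109 to 1689 with Hevin and 524 to 791 with LPS. Of these 10 markers 5 passed the test as higher in Hevin than in Media. The 3 libraries of number 2 stood apart. Their neutrophil markers (8 of 9 listed, none at 0) summed to 1911 to 2062 FPKM against 47.0 to 133.6 in the other 9 libraries, and their 6 monocyte markers summed to 91.1 to 118.8 FPKM against 3.68 to 10.3. Endothelial markers (5 of 5 listed) also differed by number, from 18.8 to 21.9 FPKM in number 1 to 121.8 to 140.3 in number 3. Border macrophage markers (7 of 7 listed) summed to 831 to 968 FPKM in Media, 714 to 881 in LPS and 631 to 841 in Hevin. Most of this sum was Pf4, and the markers differed in direction. From Media to Hevin the mean of Pf4 went from 583 to 484 FPKM and Mrc1 from 161 to 71.7. Ms4a7 went from 20.5 to 39.1 FPKM and F13a1 from 44.7 to 56.3. Of the 7, 2 passed the test as higher and 1 as lower in Hevin than in Media. Whole reads recovered from the values numbered 18343996 to 27361665 per library.

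The receptors covered a wide range of levels, and any level, rank, share or fold set between genes depends on the gene model behind FPKM. The length that the FPKM steps imply was 1500 bases for Lilrb4a, 2571 for Cd33, 1885 for Cd300lf and 1849 for Siglece, against GENCODE exon unions of 5227, 7771, 5149 and 1849 bases. For Pirb the implied length was 2728 against 4471 bases, and for Cd200r1 1891 against 3348. On these FPKM, in Media the order of mean FPKM was Lilrb4a, Sirpa, Cd300a, Cd300ld, Cd200r1, Cd33, Pirb, Siglece and Cd300lf. Neighbours in this order did not overlap between libraries except Cd33 with Pirb and Siglece with Cd300lf. Lilrb4a ranked 13 among all 14541 genes in Media, 25 in Hevin and 10 in LPS. It alone made up 76.8 to 82.1% of the summed FPKM of the 9 genes in the Media libraries, 66.3 to 74.7% in Hevin and 88.3 to 92.2% in LPS. Its mean stood 1122-fold above the lowest receptor in Media, 407-fold in Hevin and 1755-fold in LPS.

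The order changed below Lilrb4a, Sirpa and Cd300a, which led in every group. In Hevin Cd33 came next, overlapping Cd200r1, and Cd300ld came after both. In LPS Cd200r1 came next, overlapping Cd300a. Pirb overlapped Siglece in Hevin and Cd33 in LPS. Siglece and Cd300lf were lowest in all 3 groups. Siglece rested on 59 to 167 reads per library and Cd300lf on 26 to 175, against 24288 to 94490 for Lilrb4a.

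**Figure D1:**
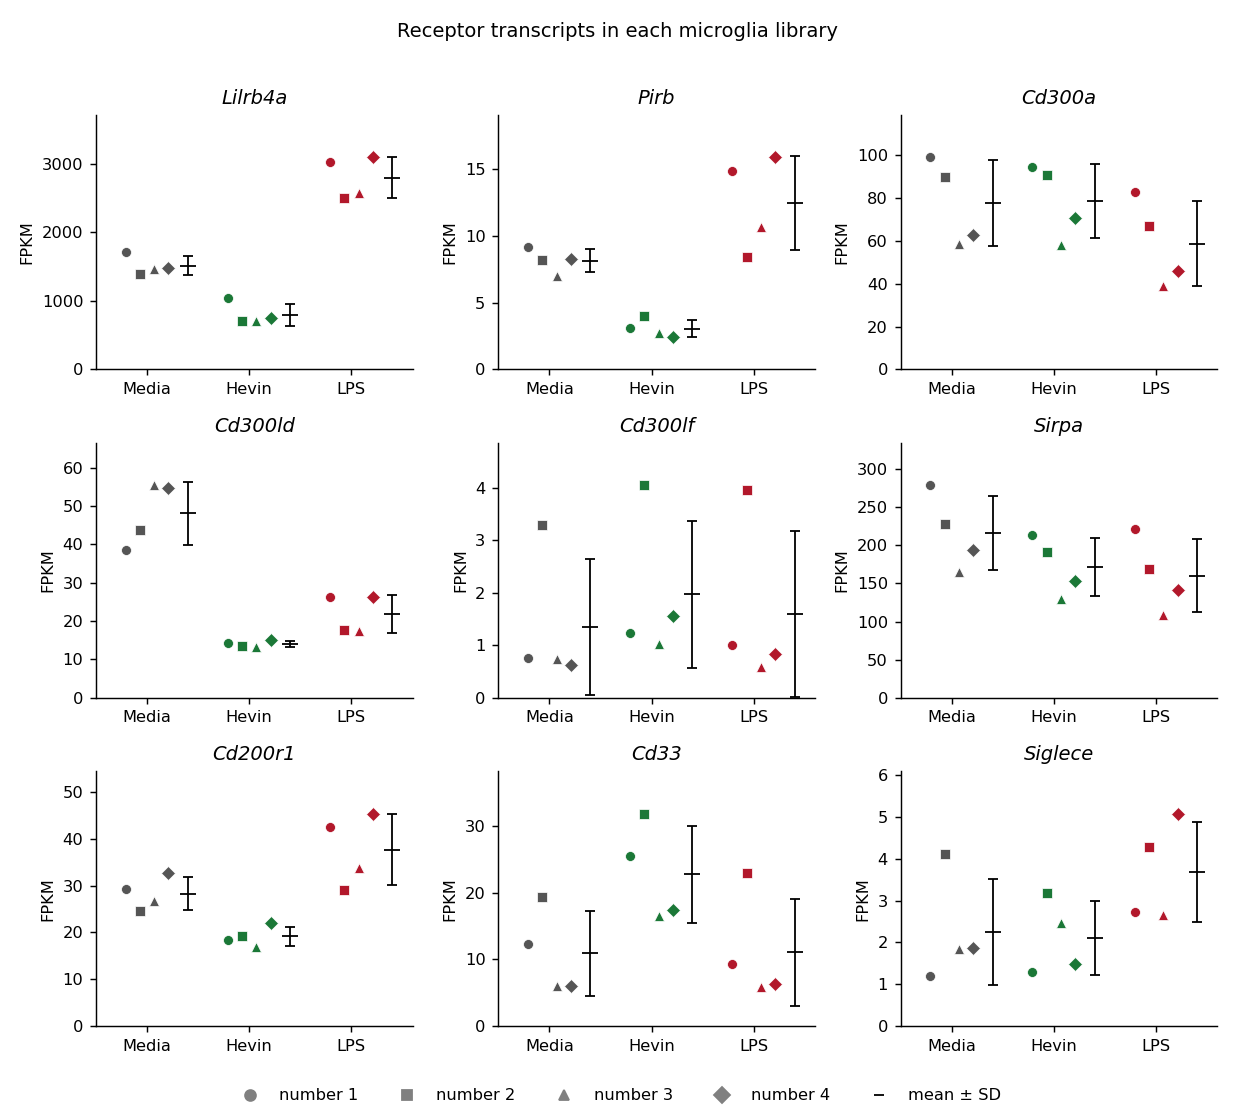
FPKM of each of the 9 receptor genes (y axes, linear from 0) in the 4 Media, 4 Hevin and 4 LPS libraries, with marker shapes for the replicate numbers and a bar for the mean ± SD of each group. Lilrb4a, Pirb, Cd300ld and Cd200r1 separate Hevin from Media, while the libraries of number 2 are the highest for Cd300lf and Cd33 in each group.

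Against Media, 4 of the 9 receptors fell with Hevin and 0 rose, by limma on log2(FPKM + 1) at an adjusted p under 0.05. This main fit left the replicate number out. Over all 11242 genes tested 7.37% passed, 4.27% as higher and 3.1% as lower. At an unadjusted p under 0.05 there was 1 receptor higher (Cd33), and voom on recovered reads called 0 higher. Those that fell were Lilrb4a, Pirb, Cd300ld and Cd200r1, and these 4 were also the ones whose Hevin and Media libraries did not overlap, beside 16.6% of all genes. With the replicate number as a block, 2 receptors passed as higher (Cd300lf and Cd33) and 5 as lower (Sirpa added), beside 10.8% and 10.6% of all genes, 21.4% in all. Cd300lf passed the filter on low values only through its Hevin libraries, so its call as higher in Hevin is not independent of the filter. Leaving out the libraries of number 2 gave 1 higher (Cd33) and the same 4 lower, beside 3.03% and 2.25% of all genes, 5.28% in all. Cd300a and Siglece passed in none of these fits. Compared within numbers, 2 receptors were higher and 5 lower with Hevin in all 4, and 47.0% of all genes kept their sign in all 4. The median log2 fold change was -0.33 over the 9 genes and 0.00020 over all genes tested. In bulk RNA, fewer cells of a type and less RNA per cell cannot be told apart, and the part of the higher microglia markers in the Hevin differences was not tested.

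Against Media, 1 receptor (Lilrb4a) rose with LPS and 1 (Cd300ld) fell, beside 13.2% of all genes called higher and 12.6% called lower, 25.8% in all. LPS and Media libraries did not overlap for these 2 genes, nor for 25.6% of all genes. The block gave 4 receptors higher (Lilrb4a, Pirb, Cd200r1 and Siglece) and 3 lower (Cd300a, Cd300ld and Sirpa), beside 21.5% and 22.2% of all genes, 43.7% in all. Without number 2 Lilrb4a and Pirb were called higher and Cd300ld lower, beside 13.1% and 10.4% of all genes, 23.5% in all. The 7 receptors called with the block kept their sign in all 4 numbers, as did 53.8% of all genes. The median log2 fold change was 0.11 over the 9 genes and -0.024 over all genes. Dendritic cell markers (6 of 6 listed, Clec9a at 0 in some libraries) summed to 39.5 to 59.5 FPKM in LPS, 12.2 to 20.05 in Media and 8.41 to 14.04 in Hevin. Most of this sum was Ccr7, with means of 40.8 FPKM in LPS, 10.6 in Media and 6.56 in Hevin. Flt3, Clec9a and Cd209a had means under 1 FPKM in every group. Only 3 dendritic cell markers were tested, and all 3 passed as higher in LPS than in Media. Astrocyte markers (7 of 7 listed) summed to 111.9 to 233.6 FPKM in LPS, 49.8 to 85.3 in Media and 20.8 to 44.2 in Hevin. Most of this sum was Gja1, with means of 174 FPKM in LPS, 60.7 in Media and 25.3 in Hevin. The next highest, Slc1a3, had means of 3.58, 2.67 and 2.81 FPKM in the same order. Of 3 astrocyte markers tested, 1 passed as higher in LPS and 1 as lower in Hevin, each against Media. The part of the dendritic cell or astrocyte markers in the LPS differences was not tested.

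Set directly against LPS, Hevin left 4 receptors lower (Lilrb4a, Pirb, Cd300ld and Cd200r1) and 0 higher, beside 19.7% of all genes lower and 22% higher, 41.7% in all. Cd33 was the 1 receptor higher at an unadjusted p under 0.05, and voom called it. The libraries of these 4 did not overlap between the groups, beside 37.5% of all genes. The block added Siglece as lower and Cd300a and Cd33 as higher, for 5 lower and 2 higher beside 28% and 29.9% of all genes, 57.9% in all. Without number 2 there were 5 lower (Siglece added) and 1 higher (Cd33), beside 19% and 19.2% of all genes, 38.2% in all. This contrast is also the test of the difference between the Hevin and LPS changes, which share the Media libraries.

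**Figure D2:**
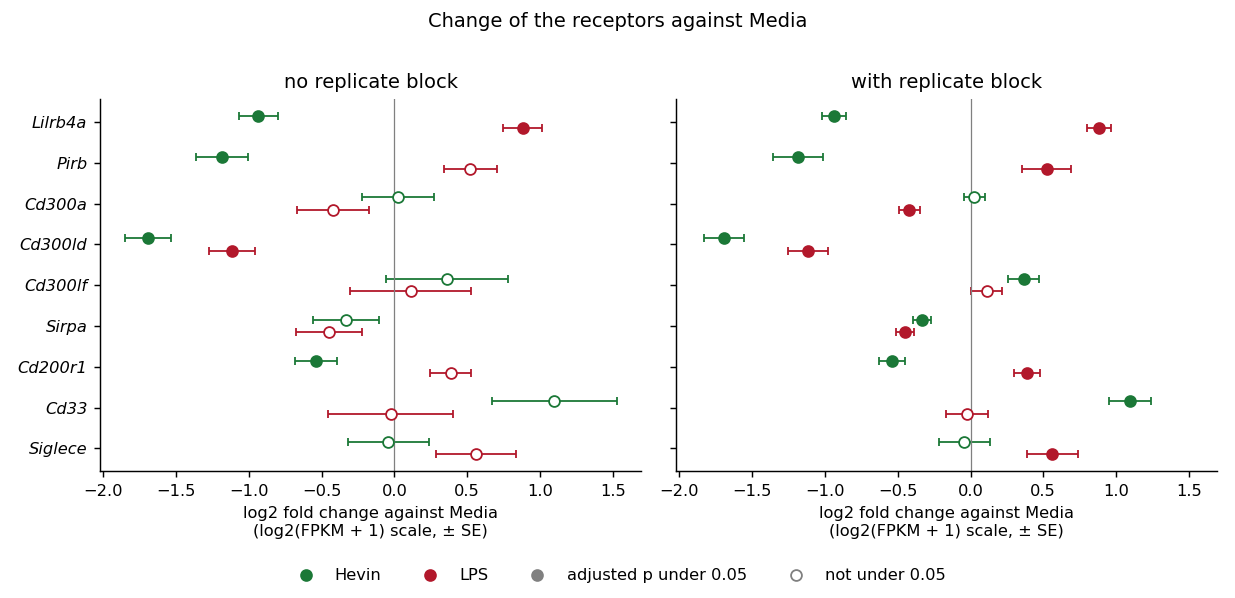
Log2 fold change against Media with its standard error (x axis, log2(FPKM + 1) scale) for each receptor, from the fit without (left) and with (right) the replicate number as a block. Filled points have an adjusted p under 0.05, and the estimates are the same in both panels while the standard error of every receptor is smaller on the right.

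Lilrb4a, formerly gp49B, encodes an inhibitory receptor of the leukocyte immunoglobulin-like family that recruits the phosphatase SHP-1. Its level in Media numbers 1 to 4 was 1707, 1397, 1473 and 1488 FPKM. In Hevin it was 1042, 705, 709 and 747 FPKM. In LPS it was 3027, 2503, 2575 and 3101 FPKM. Every Hevin library was below and every LPS library above every Media library. Lilrb4a fell from 1516 ± 134 FPKM in Media (SD, n = 4) to 801 ± 162 with Hevin, a log2 fold change of -0.94 ± 0.13 (SE, adjusted p = 0.00109). It rose to 2801 ± 306 FPKM with LPS, by 0.88 ± 0.13 on the log2 scale (adjusted p = 5.41e-04). The mean with LPS was 3.50-fold the mean with Hevin, and Hevin against LPS gave -1.82 ± 0.13 (adjusted p = 8.81e-07). Under quantile normalization the LPS rise came to 0.24 with an adjusted p of 0.353, and Hevin against LPS to -0.88 with an adjusted p of 0.00163.

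Part of the Lilrb4a value may be shared with near-identical genes. Of its 100-base exon windows 35.2% occur in another annotated gene. Gm49339 overlaps it on the same strand over 35.3% of its exon bases. The neighbouring paralogue Lilr4b, formerly gp49A, which lacks the inhibitory motifs, holds 9.67% of the windows. Lilr4b was at 998 ± 56.0 FPKM in Media, 462 ± 87.3 in Hevin and 1889 ± 210 in LPS, with no overlap between groups. Its log2 fold change was -1.12 ± 0.12 with Hevin (adjusted p = 1.86e-04) and 0.91 ± 0.12 with LPS (adjusted p = 2.55e-04). The ratio of Lilrb4a to Lilr4b within a library was 1.43 to 1.63 in Media, 1.44 to 1.53 in LPS and 1.67 to 1.76 in Hevin, so that all 4 Hevin ratios were above all 8 others.

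Pirb encodes the paired immunoglobulin-like receptor B, which binds class I MHC and carries inhibitory motifs. Media libraries 1 to 4 held 9.15, 8.21, 6.98 and 8.31 FPKM. Hevin libraries held 3.08, 3.97, 2.74 and 2.44 FPKM. LPS libraries held 14.9, 8.44, 10.7 and 15.9 FPKM. Hevin lay below all other libraries, and LPS number 2 lay within the range of Media. The mean fell from 8.16 ± 0.895 FPKM to 3.06 ± 0.663 with Hevin, 2.67-fold lower, with a log2 fold change of -1.18 ± 0.18 (adjusted p = 0.00174). With LPS it was 12.5 ± 3.52 FPKM, a log2 fold change of 0.52 ± 0.18 that missed the threshold (adjusted p = 0.0515) and passed with the block (adjusted p = 0.0286). Without number 2 the LPS difference was 0.68 and passed (adjusted p = 0.0145). Hevin against LPS gave -1.71 ± 0.18 (adjusted p = 1.74e-05), with a mean 4.08-fold higher in LPS.

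Pirb, too, has near copies: 20.8% of its 100-base exon windows occur in other genes, so the split of reads between them is uncertain. Gm14548 holds the most, 11.7% of the windows, and its level is not given here. Pira2 holds 10.7%, Gm15925 6.61%, Gm15922 6.57% and Lilra6 5.58%. The levels of Gm15925, Gm15922 and further gene models with smaller shares are not given here either. Pira2 and Lilra6 were listed below the filter on low values. Lilra6 had means of 0.493 FPKM in Media, 0.241 in Hevin and 0.590 in LPS, and Pira2 had lower ones in each group.

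Within the CD300 cluster the members differed in their changes. Cd300ld, an activating member that pairs with the Fc receptor gamma chain, had the lowest log2 fold change of the 9 receptors under Hevin. In Media numbers 1 to 4 it stood at 38.5, 43.7, 55.3 and 54.6 FPKM. In Hevin it stood at 14.3, 13.6, 13.1 and 14.9 FPKM, and in LPS at 26.2, 17.5, 17.4 and 26.2 FPKM. The 3 groups did not overlap, Hevin being lowest and Media highest. Cd300ld fell from 48.0 ± 8.28 FPKM to 14.0 ± 0.793 with Hevin, 3.43-fold lower, with a log2 fold change of -1.69 ± 0.16 (adjusted p = 4.8e-05). It fell to 21.8 ± 5.06 FPKM with LPS, with a log2 fold change of -1.11 ± 0.16 (adjusted p = 3.42e-04). Hevin was below LPS by a log2 difference of -0.58 ± 0.16 (adjusted p = 0.0114), a call lost when libraries were rescaled to equal FPKM totals (-0.17, adjusted p = 0.359).

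Cd300a encodes an inhibitory receptor for phosphatidylserine and phosphatidylethanolamine, lipids exposed on dying cells. Its FPKM in Media was 99.2, 89.9, 58.5 and 62.9. In Hevin it was 94.4, 91.0, 58.0 and 70.6, and in LPS 82.7, 66.9, 39.2 and 46.1. All 3 groups overlapped, and within each group number 1 was highest and number 3 lowest. Hevin differed from Media by 0.03 ± 0.25 on the log2 scale (adjusted p = 0.977). LPS differed from Media by -0.42 ± 0.25 (adjusted p = 0.245), with values from -0.56 to -0.26 in the 4 numbers, and passed with the block (SE 0.07, adjusted p = 8.37e-04). Hevin against LPS gave 0.45 ± 0.25 (adjusted p = 0.174), which also passed with the block (adjusted p = 3.53e-04).

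Cd300lf encodes an inhibitory relative that binds lipids and is known as the receptor of murine norovirus. In Media it was listed at 0.76, 3.29, 0.74 and 0.62 FPKM, in Hevin at 1.24, 4.04, 1.02 and 1.56, and in LPS at 1.01, 3.96, 0.59 and 0.83. Number 2 was the highest library of every group, and the groups overlapped. Without the Hevin libraries Cd300lf would have missed the filter on low values, so that it was tested at all rested on Hevin. The Hevin difference was 0.36 ± 0.42 (adjusted p = 0.716), and with the block its SE was 0.11 and its adjusted p 0.0341. That call ended with voom on recovered reads and the block (0.58, adjusted p = 0.114) and, with no block, the difference was 0.076 without Hevin 2 and 0.70 without Media 2. Without number 2 in any group it was 0.41 (adjusted p = 0.166). The LPS difference was 0.11 ± 0.42 (adjusted p = 0.884) and passed in neither fit. The sums of the neutrophil and monocyte markers were also high in number 2, and the part of these markers in the level of Cd300lf was not tested.

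Other genes of the CD300 cluster were listed as well. Cd300lb, an activating member that uses DAP12, was at 192 ± 22.1 FPKM in Media, above Cd300a. It fell with LPS to 62.4 ± 21.9 FPKM (log2 fold change -1.66 ± 0.20, adjusted p = 9.37e-05), and with Hevin it was at 147.9 ± 17.1 (-0.38 ± 0.20, adjusted p = 0.318). Cd300lh fell in both comparisons, from 11 ± 0.994 FPKM to 6.46 ± 0.993 with Hevin (adjusted p = 0.0197) and 6.97 ± 1.85 with LPS (adjusted p = 0.0136). Cd300ld and Cd300lf share 1.37% and 0.644% of their 100-base exon windows with each other, and Cd300a shares 0.849% with Cd300c2.

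Cd33 and Siglece encode receptors for sialic acid. Mouse CD33 has a charged residue in its membrane span and pairs with DAP12, unlike the inhibitory human protein. Its transcript stood at 12.3, 19.4, 5.98 and 5.98 FPKM in Media numbers 1 to 4. In Hevin it stood at 25.5, 31.8, 16.4 and 17.3 FPKM. In LPS it stood at 9.31, 22.9, 5.93 and 6.26 FPKM. Number 2 was highest and numbers 3 and 4 were lowest in every group, and within every number Hevin was highest, by 1.64-fold to 2.90-fold over Media. The Hevin and Media groups overlapped through Media number 2.

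Mean Cd33 was 10.9 ± 6.39 FPKM in Media, 22.8 ± 7.26 in Hevin and 11.1 ± 8.0 in LPS. The Hevin difference of 1.10 ± 0.43 did not pass (adjusted p = 0.161), and it passed with the block (SE 0.14, adjusted p = 3.34e-04). Without the libraries of number 2 it was 1.24 and passed with no block (adjusted p = 0.0393). LPS differed from Media by -0.02 ± 0.43 (adjusted p = 0.980). Hevin against LPS gave 1.12 ± 0.43 (adjusted p = 0.0533), with 6.64e-05 as adjusted p with the block, and 1.34 without number 2 (adjusted p = 0.00567). Among the microglia markers 5 of 10 were higher in Hevin as well, and their part in the Cd33 difference was not tested.

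Siglece encodes an inhibitory sialic acid receptor known to restrain microglial phagocytosis. In Media it was listed at 1.21, 4.10, 1.85 and 1.86 FPKM, in Hevin at 1.29, 3.18, 2.46 and 1.48, and in LPS at 2.72, 4.29, 2.65 and 5.07. Number 2 was highest in Media and Hevin, number 4 in LPS, and all 3 groups overlapped. Hevin differed from Media by -0.04 ± 0.28 (adjusted p = 0.962), and the sign was split between numbers. The LPS difference was 0.56 ± 0.28 (adjusted p = 0.160), positive in all 4 numbers, and passed with the block (adjusted p = 0.0248) but not with voom and the block (0.69, adjusted p = 0.0614). Without Media 2 it was 0.80 and passed with no block (adjusted p = 0.0365). Hevin against LPS gave -0.60 ± 0.28 (adjusted p = 0.0990), which passed with the block (adjusted p = 0.0130) and without number 2 (-0.69, adjusted p = 0.0462).

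**Figure D3:**
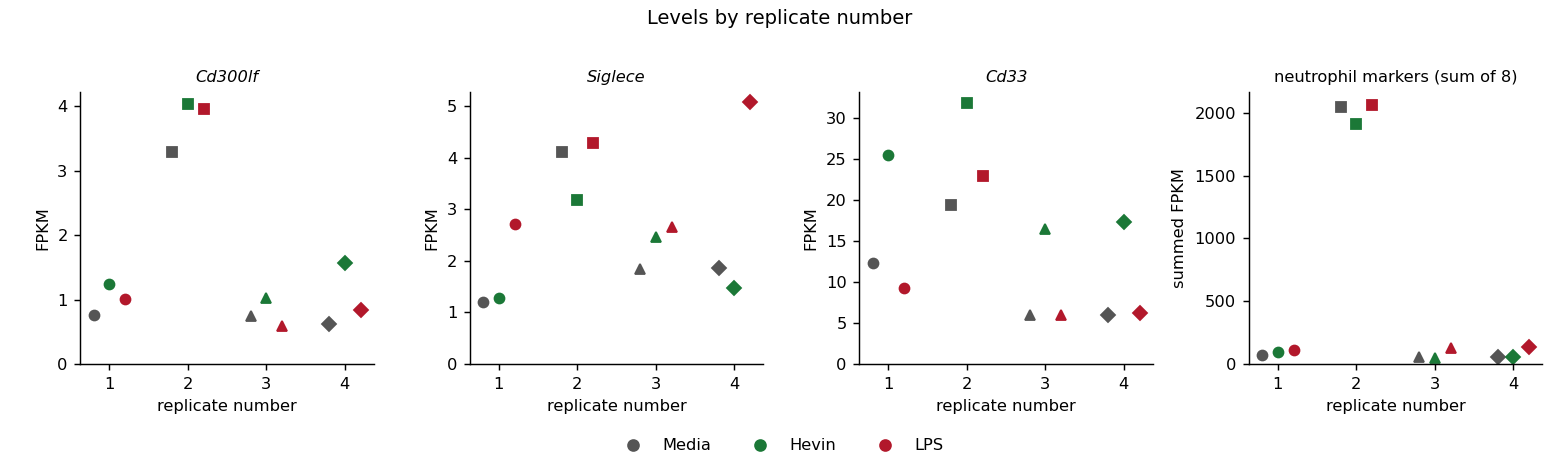
FPKM of Cd300lf, Siglece and Cd33 and the summed FPKM of 8 neutrophil markers (y axes, linear from 0) by replicate number (x axes), 1 point per library in the color of its group. Cd300lf and the neutrophil sum stand high in number 2 of every group, while Cd33 is highest in Hevin within each number.

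Sirpa encodes the receptor for CD47, through which a target cell can limit its own engulfment. In Media its level was 279, 228, 165 and 194 FPKM in numbers 1 to 4. In Hevin it was 214, 191, 129 and 153 FPKM, and in LPS 222, 169, 109 and 142 FPKM. The groups overlapped, and number 1 was highest and number 3 lowest in each. Media was the highest within every number. The mean was 216 ± 49.0 FPKM in Media, 172 ± 38.0 in Hevin and 160.4 ± 47.6 in LPS. Hevin differed by -0.33 ± 0.23 (adjusted p = 0.474) and LPS by -0.45 ± 0.23 (adjusted p = 0.173). Both passed with the block, with an SE of 0.06 and adjusted p of 0.00306 and 1.66e-04. Hevin and LPS differed by 0.12 ± 0.23 (adjusted p = 0.718), which passed in neither fit. With quantile normalization or equal FPKM totals, and no block, Sirpa was called higher in Hevin than in LPS. Its fall with LPS against Media was called with these scalings and with upper quartile scaling.

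Cd200r1 encodes the receptor for CD200, an inhibitory receptor that acts through the adaptor Dok2 and RasGAP in place of a phosphatase. Its level in Media was 29.3, 24.5, 26.8 and 32.6 FPKM. In Hevin it was 18.3, 19.3, 16.9 and 21.9 FPKM, and in LPS 42.6, 29.0, 33.8 and 45.3 FPKM. Hevin lay below all other libraries, and LPS overlapped Media through number 2. Cd200r1 fell from 28.3 ± 3.49 FPKM to 19.1 ± 2.12 with Hevin, a log2 fold change of -0.54 ± 0.14 (adjusted p = 0.0393). This call ended when Media 1, 3 or 4 or Hevin 1, 2 or 3 was left out, with adjusted p from 0.0786 to 0.114. With the block the adjusted p was 0.00150. With LPS it was 37.7 ± 7.59 FPKM, a difference of 0.39 ± 0.14 (adjusted p = 0.0658) that passed with the block (adjusted p = 0.00490). The LPS mean was 1.97-fold the Hevin mean, and Hevin against LPS gave -0.93 ± 0.14 (adjusted p = 3.23e-04).

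The receptors differed in how much of their spread followed the replicate number. For Cd300a, Cd300lf, Sirpa, Cd33 and Siglece the means of the 4 numbers ranged wider than the means of the 3 groups, which held for 44.2% of all genes tested. Cd300a and Sirpa ran from number 3 to number 1 over 0.83 on the log2 scale each. Cd300lf and Cd33 ran from number 3 to number 2, over 1.42 and 1.41. For Lilrb4a, Pirb, Cd300ld and Cd200r1 the numbers ranged over 0.31 to 0.40 and the groups over 0.93 to 1.82.

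The genes most like each receptor over the 12 libraries were found by the root mean square difference of log2(FPKM + 1) after centring each gene on its own mean. Lilrb4a was closest to Igf2bp2 (0.104) and its paralogue Lilr4b (0.109), and Pirb to Igf2bp2 (0.255) and Cd53 (0.256). Cd300a was closest to Nceh1 (0.0851) and Soat1 (0.0890), and Sirpa to Abcb6 (0.103) and Galnt6 (0.117). Cd300ld was closest to Cass4 (0.228) and Stap1 (0.257), Cd200r1 to Layn (0.121) and Cndp2 (0.141), and Cd33 to Rab15 (0.274) and Bhlhe41 (0.306). Cd300lf was closest to Rab27a (0.190) and to Cxcr2 (0.196), the latter a marker on the neutrophil list. Siglece was closest to Slc39a8 (0.191) and Igfbp4 (0.217). No receptor had another of the 9 among its 2 closest genes.

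Of 49 related receptors, 35 were listed and 25 were tested. Lilr4b, described above, is not in these counts, since the list holds it under another symbol. The counts of this and the following lists stand beside 7.37% of all genes called with Hevin and 25.8% with LPS, and 21.4% and 43.7% with the block. With Hevin 1 rose and 2 fell, and with the block 5 and 5. Trem2, a DAP12-coupled lipid receptor, rose from 71.9 ± 10.4 FPKM to 112 ± 14.6 (0.64 ± 0.13, adjusted p = 0.0111). Clec4a1, a C-type lectin, fell from 7.84 ± 0.964 to 4.46 ± 0.285 FPKM (-0.69 ± 0.17, adjusted p = 0.0255), and Cd300lh was the other that fell. With LPS 6 rose and 6 fell, and with the block 10 and 6. Fcgr2b, the inhibitory receptor for IgG, rose from 15.2 ± 2.94 to 106.5 ± 40.3 FPKM (2.67 ± 0.23, adjusted p = 5.8e-06), while in Hevin it was at 16.1 ± 2.29 (adjusted p = 0.902). Clec4a1 rose to 20.2 ± 5.29 FPKM and the inhibitory receptor gene Milr1 from 22.2 ± 4.13 to 41.3 ± 12.1. Cd300lb, the B-cell and macrophage receptor gene Cd72 and the beta-glucan receptor gene Clec7a fell, Cd72 from 18.2 ± 8.29 to 5.77 ± 3.13 and Clec7a from 80.3 ± 5.73 to 51.1 ± 10.3 FPKM. Trem2 fell with LPS as well, to 49.0 ± 6.89 FPKM (adjusted p = 0.0106).

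All 20 genes of inhibitory signalling were tested. With Hevin 1 rose and 2 fell, and with the block 5 and 7. With LPS 4 rose and 7 fell, and with the block 7 and 9. Inpp5d, encoding the phosphatase SHIP-1, rose from 45.7 ± 4.44 to 77.5 ± 7.96 FPKM with Hevin (0.75 ± 0.18, adjusted p = 0.0242) and fell to 17.1 ± 5.19 with LPS (-1.41 ± 0.18, adjusted p = 1.54e-04). Ptpn6, encoding SHP-1, was at 80.2 ± 15.7 FPKM in Media and 67.6 ± 13.4 in Hevin (adjusted p = 0.583, with the block 0.0362), and it fell to 46.2 ± 14.0 with LPS (-0.81 ± 0.21, adjusted p = 0.0129). Ptpn11, encoding SHP-2, was at 30.2 ± 2.01 FPKM in Media, 32.6 ± 1.82 in Hevin (adjusted p = 0.504) and 36.4 ± 2.52 in LPS (adjusted p = 0.0284). Dok2, the adaptor of CD200R, fell from 40.2 ± 18.3 to 12.5 ± 5.84 FPKM with Hevin (-1.59 ± 0.36, adjusted p = 0.0171) and to 8.80 ± 2.42 with LPS (-1.99 ± 0.36, adjusted p = 0.00169). The kinase gene Src rose with LPS from 33.6 ± 2.66 to 72.4 ± 8.61 FPKM, as did the phosphatase gene Ptprc, from 61.9 ± 4.0 to 95.1 ± 10.4.

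All 20 genes of activating adaptors and signalling were tested. With Hevin 0 rose, as at an unadjusted p under 0.05 and with voom, and 2 fell, and with the block 1 and 2. With LPS 6 rose and 5 fell, and with the block 9 and 7. Tyrobp, the adaptor used by mouse CD33 and by Cd300lb, was at 549.7 ± 28.7 FPKM in Media and 565 ± 39.8 in Hevin (adjusted p = 0.901), and fell to 356 ± 54.2 with LPS (-0.63 ± 0.11, adjusted p = 0.00107). Fcer1g, the adaptor of Cd300ld, was at 478 ± 28.2 FPKM in Media and 429 ± 15.9 in Hevin (adjusted p = 0.463), and rose to 677 ± 105.5 with LPS (0.49 ± 0.10, adjusted p = 0.00486). Those that fell with Hevin were the exchange factor gene Vav3, from 16.3 ± 1.82 to 9.12 ± 1.27 FPKM, and Lcp2, which encodes the adaptor SLP-76, from 62.5 ± 6.66 to 42.5 ± 5.72. With LPS Lcp2 rose to 171 ± 11.4 FPKM, the paracaspase gene Malt1 from 18.1 ± 1.45 to 127.6 ± 35.7, and the kinase gene Syk from 63.0 ± 2.66 to 95.7 ± 9.46. Nfam1 fell with LPS from 13.5 ± 2.82 to 3.29 ± 1.00 FPKM and Card9 from 10.2 ± 0.505 to 5.80 ± 0.845.

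Of 13 ligand genes 12 were listed and 11 tested. With Hevin 1 rose and 1 fell, and with the block 3 and 2. Angptl2, a secreted protein reported as a ligand of this receptor family, rose from 3.70 ± 0.496 to 9.93 ± 1.15 FPKM (1.22 ± 0.11, adjusted p = 4.19e-05), and Thbs1, encoding the CD47 ligand thrombospondin-1, fell from 433 ± 31.3 to 144 ± 25.7 (-1.60 ± 0.12, adjusted p = 9.71e-06). With LPS 4 rose and 1 fell, and with the block 5 and 3. Cd47, encoding the ligand of SIRPα, was at 20 ± 5.16 FPKM in Media and rose to 39.2 ± 9.83 with LPS (0.94 ± 0.22, adjusted p = 0.00840). In Hevin it was at 33.9 ± 5.45 FPKM (0.76 ± 0.22, adjusted p = 0.0603), which passed with the block (adjusted p = 1.29e-04). Cd200, the ligand gene of Cd200r1, was at 3.41 ± 1.95 FPKM in Media, 2.84 ± 1.59 in Hevin (adjusted p = 0.877) and 7.14 ± 4.44 in LPS (adjusted p = 0.201, with the block 2.58e-04). The class I MHC genes H2-K1 and H2-D1, ligands of PirB, rose with LPS from 204 ± 25.3 to 395 ± 43.1 and from 241 ± 29.1 to 358 ± 48.5 FPKM, and Thbs1 fell to 254 ± 24.4.

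Of 19 genes of sialic acid synthesis, transfer and removal, which set the ligands of CD33 and Siglec-E, 15 were tested. With Hevin 1 rose and 1 fell, and with the block 4 and 2, while without number 2 there were 0 higher and 2 lower. The sialyltransferase gene St6galnac4 rose from 9.13 ± 0.362 to 15.5 ± 2.48 FPKM (adjusted p = 0.0240), and St3gal5, which makes the ganglioside GM3, fell from 19.97 ± 2.51 to 12.5 ± 2.26 (adjusted p = 0.00859). With LPS 2 rose and 3 fell, and with the block 4 and 7. St3gal1 rose from 16.1 ± 4.32 to 61.2 ± 15.3 FPKM (1.86 ± 0.24, adjusted p = 1.54e-04) and St3gal4 from 2.93 ± 0.546 to 5.47 ± 1.85. The sialic acid synthesis genes Cmas and Nans fell with LPS, from 32.3 ± 2.97 to 16.4 ± 2.38 and from 19.6 ± 1.10 to 12.9 ± 1.70 FPKM, and St3gal5 fell to 10.1 ± 0.734. In the median over tested genes, the lists lay at -0.17 (related receptors), -0.08 (inhibitory signalling), -0.01 (activating adaptors and signalling), 0.00 (ligands) and -0.05 (sialic acid genes) with Hevin.

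**Figure D4:**
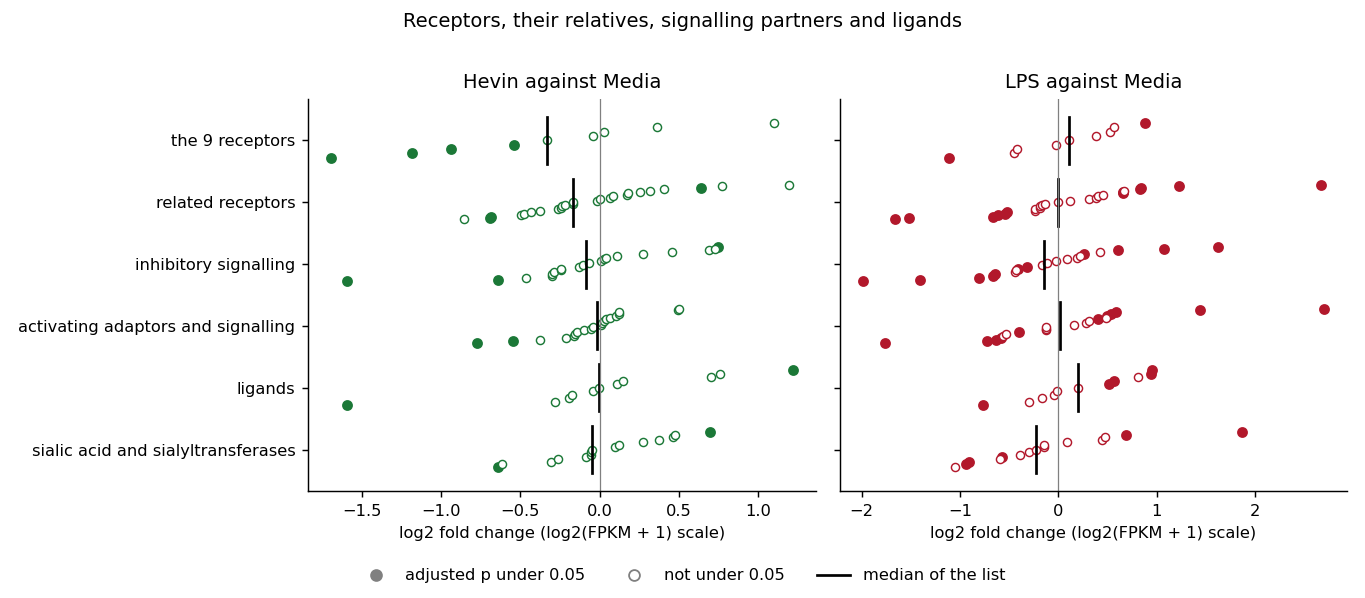
Log2 fold changes of the receptors and of the tested genes of 5 lists, 1 point per gene (x axes, log2(FPKM + 1) scale), for Hevin against Media (left) and LPS against Media (right). Filled points have an adjusted p under 0.05 in the fit without the block. Vertical lines are medians, which for the 9 receptors were -0.33 with Hevin and 0.11 with LPS.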

How the data were processed

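The samples were 12 mouse microglia libraries in 3 groups of 4, grouped and numbered by their titles. Per the labels' protocols, 100 ng of RNA went into a strand-marking poly(A) kit and reads were paired, of 100 bases each. Tools in the submitters' processing notes, which give neither role nor order, are edgeR 3.30.3, R 4.0.0, Subread 1.6.3, featureCounts, Bowtie2 2.3.5.1, Trimmomatic 0.39 and FastQC 0.11.7, with the build mm10. The authors deposited FPKM values for 14541 genes named by symbol, and 22 names had become dates. For the gene models, the filter on rows and the strand setting of counting, nothing is stated in the labels or headers.

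The filter asked for 1 FPKM or more in 4 or more libraries and left 11242 genes. Groups were compared on log2(FPKM + 1) by limma 3.58.1 (R 4.3.3), all libraries in 1 fit with a mean-variance trend. Adjustment was by Benjamini-Hochberg over all genes tested, at a threshold of 0.05. Fold changes on this scale understate those of low genes. Divided by the step of 1 read, values came out whole to within 0.1 in all 14541 rows (100%). These recovered reads gave the depth and were used for limma-voom, which called 512 genes higher and 353 lower in Hevin against Media. Voom kept the library factors of the FPKM, so it did not vary the scaling between groups. Scripts were tested on simulated data.

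The receptors and the gene lists were chosen with earlier results of these data known. Named were the receptors, up to 3 called list genes per direction with a mean of at least 5 FPKM in 1 group, 7 direct partners, and the 2 genes most like each receptor, gene models skipped. A gene that the rule names is not reported here.

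The titles give every group the same numbers 1 to 4, and columns of 1 number carry a common group label in the deposited table. Deviations from group means correlated within each number in all 12 pairs, at 0.230 to 0.784 (mean 0.630). Across numbers 36 pairs ran from -0.592 to 0.528 (mean -0.201), the highest between numbers 3 and 4. The numbers were taken to pair the libraries, but the main fit left them out and only the block held them. Alternatives were pseudocounts of 0.1 and 5, no filter or one of 5 FPKM, the groups compared taken alone, no trend, the block, 3 other scalings, voom, and leaving out each library or number 2. Positions, exon windows and overlaps come from GENCODE M21, and promoters from RefSeq. Figures were drawn with matplotlib 3.10.9.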

Additional observations from a re-analysis of the deposited data

Results flagged for a closer look

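In 27 groups of 4 libraries (9 receptors in 3 groups), 3 held a library whose gap to the nearest other exceeded Dixon's 95% critical share of the group's range. For independent groups of normal values chance gives about 1 in 20. The 27 groups reuse the same 12 libraries, so their count cannot be set against this rate. Lilrb4a in Hevin library 1 was at 1042 FPKM, with the others at 705 to 747, a gap of 0.876 of the range. Cd300lf in Media library 2 was at 3.29 FPKM, with the nearest at 0.762 (0.947 of the range). Cd300lf in LPS library 2 was at 3.96 FPKM, with the nearest at 1.01 (0.874 of the range). The libraries of number 2 are also those with high sums of neutrophil and monocyte markers. The part of these markers was not tested.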

How the results depend on the processing

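Of 669 receptor fold changes under the alternatives, 593 kept their direction and side of the threshold, 50 newly passed, 8 no longer passed and 18 changed sign, none of these called in either fit. The calls of Lilrb4a, Pirb and Cd300ld in Hevin against Media held in all 25 alternatives. With all of number 2 left out, Siglece changed sign in Hevin against Media (0.041). With all libraries kept, sign changes in LPS against Media were Cd300lf with equal FPKM totals (-0.082) and Cd33 with voom (0.019). Leaving out 1 library gave ranges of -0.10 to 0.16 (Cd300a) and -0.20 to 0.20 (Siglece) in Hevin against Media, -0.25 to 0.44 (Cd300lf) and -0.42 to 0.29 (Cd33) in LPS against Media, and -0.035 to 0.62 (Cd300lf) and -0.050 to 0.29 (Sirpa) in Hevin against LPS. The filter of 5 FPKM left Cd300lf and Siglece untested.

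With the replicate block, as with the pairing of numbers, receptors called higher and lower changed to 2 and 5 in Hevin against Media, 4 and 3 in LPS against Media and 2 and 5 in Hevin against LPS. Over all genes the block gave 1210 and 1196 for Hevin against Media and 2416 and 2498 for LPS against Media. Voom with the block gave 1 receptor higher and 1363 and 1366 genes, then 3 and 3 receptors and 2438 and 2519 genes, and 2 receptors higher in Hevin against LPS.

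Receptors called higher otherwise moved to 1 in Hevin against Media without number 2, and to 2 in LPS against Media with a pseudocount of 5, a filter of 5 FPKM or without number 2. In Hevin against LPS they moved to 1 with a filter of 5 FPKM, only both groups, voom or without number 2, to 2 with upper quartile scaling, and to 3 with quantile normalization or equal totals. Receptors called lower in LPS against Media moved to 2 with upper quartile scaling and 3 with quantile normalization or equal totals. For all genes, LPS against Media had 2466 lower with upper quartile scaling, and 670 higher and 5590 lower with equal totals. Hevin against LPS had 1604 higher with a filter of 5 FPKM, and 5978 higher and 849 lower with equal totals. Equal totals moved the median of all genes to -0.34 in LPS against Media and 0.38 in Hevin against LPS, and upper quartile scaling to -0.12 and 0.12. Leaving out 1 library gave 308 to 541 genes higher and 203 to 389 lower in Hevin against Media, 1 to 3 receptors higher in LPS against Media and 0 to 1 in Hevin against LPS. The cause of these changes was not tested. Depth limits Cd300lf and Siglece, on as few as 26 and 59 reads.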
